A study of Mus musculus with 2 samples.

Results

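The mitochondrial solute carriers of family SLC25 were compared between BMSC-Adipo and BMSC-Osteo, clonal mouse bone marrow stromal lines that a study of skeletal stem cell metabolism used as models of an adipocyte-forming and an osteoblast-forming progenitor. Members were all genes whose symbol in the array's annotation starts with Slc25a and a number. They came to 45 of 20706 genes. They were read by 100 of the 45101 probe sets on the array, of which 93 named a single gene and 7 were shared with another gene.

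RNA was measured on 2 Affymetrix expression arrays, 1 per line, and each array held RNA pooled from 3 cultures collected at day 0, before any differentiation medium. The cell types are labelled mMSC-Adipo and mMSC-Bone. Both lines immortalized spontaneously and both have a C57BL/6 background with the genotype Beta-actin-GFP+ ApoE(-/-), so that the GFP transgene and the loss of ApoE are shared and cannot separate them. Each line is 1 clone, grown in DMEM with 12% FBS according to the labels, while the study's methods give another percentage. With 1 array per line, no spread could be computed and no difference was tested, and every value below describes this pair of arrays. A property of the clone and a property of its lineage cannot be told apart in this design, and neither can fewer cells of a type and less RNA per cell.

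SLC25 proteins form the largest family of carriers in the mitochondrial inner membrane. They share a fold built from repeated pairs of membrane helices and exchange nucleotides, phosphate, carboxylates, amino acids, cofactors and metal ions between cytosol and matrix, which links glycolysis, fatty acid oxidation, lipid synthesis and respiration. They are encoded in the nucleus and inserted through a dedicated route of outer membrane receptors, small intermembrane chaperones and the TIM22 translocase. In adipocytes citrate export feeds fatty acid synthesis and carnitine carriers feed fatty acid oxidation, and both bone and fat cells draw ATP from the matrix through the ADP/ATP carriers.

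Levels are log2 values made by robust multiarray averaging (RMA), which put both arrays on a common scale with medians of 5.01 and 5.02. A gene was represented by the brightest of its single-gene probe sets, judged on the average of both arrays. A brightness limit was set on this average at its 30th percentile, a log2 level of 4.20, so that a gene below it may exceed 4.20 on 1 array. It left 14497 genes and 38 of the 45 members. Differences are the log2 level in BMSC-Adipo minus that in BMSC-Osteo, and a difference of 1 is 2-fold. The fold change column that the authors deposited runs in the opposite direction. Where several probe sets read a gene, their differences had a pooled SD of 0.399 on the log2 scale, which was used as a measure of probe effects. It is no replicate error.

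The lineage markers followed the labels with 1 exception. Of 6 adipocyte markers, 5 had a single-gene probe set, and their differences ran from 4.05 for Pparg to 9.10 for Adipoq. Of 6 osteoblast markers, 5 ran from -2.30 for Sp7 to -7.34 for Ibsp, while Runx2, the early osteoblast regulator, differed by 0.28. Of the stromal markers, Thy1 lay below the brightness limit on both arrays. Pdgfrb differed by -0.16, Eng by -0.19, Ly6a by -0.31 and Cd44 by -2.09. The leukocyte gene Ptprc and the endothelial gene Pecam1 lay below the brightness limit on both arrays. Adgre1 had the same level of 4.22 on both and Cdh5 had levels of 4.17 and 4.47, all near the limit. The macrophage gene Cd68 had a level of 5.40 in BMSC-Adipo and 3.99 in BMSC-Osteo, and its part in the results was not tested. Apoe lay below the limit in both lines.

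The promoters of 3 carriers are shown first because these are the genes on which the comparison turned, namely Slc25a45, with the highest difference toward BMSC-Adipo, Slc25a33, with the highest toward BMSC-Osteo, and Slc25a36, the pyrimidine carrier related to Slc25a33 that differed the other way. Each run holds the 250 bases before the annotated start in RefSeq (GRCm38.p6), read 5′ to 3′ on the gene's strand. Capitals mark 3 motifs searched on both strands. The E-box is spelled CACGTG. The second motif, known from many housekeeping promoters, is spelled CCAAT and named after its letters. The GC box, bound by Sp1, is spelled GGGCGG, and no letters were counted for more than 1 motif in the windows shown. The windows are chr19:5877572-5877821 (plus strand) for Slc25a45, chr4:149774268-149774517 (minus strand) for Slc25a33 and chr9:97111042-97111291 (minus strand) for Slc25a36.
Slc25a45: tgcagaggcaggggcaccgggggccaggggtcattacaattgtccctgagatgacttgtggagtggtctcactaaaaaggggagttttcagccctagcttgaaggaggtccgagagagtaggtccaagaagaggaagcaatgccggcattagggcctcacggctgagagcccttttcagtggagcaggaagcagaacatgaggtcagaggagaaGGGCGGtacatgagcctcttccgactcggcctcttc
Slc25a33: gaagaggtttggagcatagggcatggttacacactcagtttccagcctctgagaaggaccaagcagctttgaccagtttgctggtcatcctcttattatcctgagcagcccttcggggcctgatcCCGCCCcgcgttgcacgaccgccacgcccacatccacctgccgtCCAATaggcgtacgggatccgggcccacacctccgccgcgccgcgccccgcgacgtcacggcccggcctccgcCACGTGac
Slc25a36: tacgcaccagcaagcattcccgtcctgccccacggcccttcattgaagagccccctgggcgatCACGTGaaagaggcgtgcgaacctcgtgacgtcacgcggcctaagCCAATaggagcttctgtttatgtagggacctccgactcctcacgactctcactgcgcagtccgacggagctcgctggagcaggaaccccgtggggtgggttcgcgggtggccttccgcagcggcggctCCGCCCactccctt

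The Slc25a45 window held a GC content of 56.4% and a single marked motif, a GC box whose first base lies 36 bases before the start. The Slc25a33 and Slc25a36 windows each held all 3 motifs at a GC content of 64.4%. In Slc25a33 the E-box lies 8 bases, the CCAAT box 81 bases and the GC box 125 bases before the start. In Slc25a36 the same motifs lie at 187, 142 and 14 bases. The pair of related carriers with opposite differences therefore had the same set of these motifs in another order.

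Across the family, 43 promoter windows were found for 34 of the 45 genes. A GC box was present in 32 of them (74.4%), against 42.6% of the 21263 promoters of protein-coding genes. An E-box was present in 8 (18.6%), from 7 genes, against 6.63%, and a CCAAT box in 20 (46.5%) against 35.4%. A TATA box (TATAAA, both strands) was present in 1 (2.33%) against 11.6%. The core of the element bound by ATF4 (TGATGNAA, both strands), the regulator of mitochondrial folate enzymes, was in none of the 43 and in 3.18% of coding promoters. These matches describe letters in a window and no binding was measured. Several windows can belong to 1 gene, and the share of GC boxes moves with base composition.

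Most carriers differed little between the lines. Of the 38 members past the brightness limit, 1 was at least 2-fold higher in BMSC-Adipo, where 7.88% of all 14497 genes were, and 1 was at least 2-fold higher in BMSC-Osteo, where 6.68% were. The other 36 (94.7%) lay within 2-fold, against 85.4% of all genes. At a size of 1.5-fold, 3 members were higher in BMSC-Adipo against a background of 16.1%, 1 was higher in BMSC-Osteo against 14.5%, and 34 (89.5%) lay within, against 69.4% of all genes. The median difference was 0.05 over the members and -0.03 over all genes, with 23 members positive and 15 negative. Differences beyond the probe set SD of 0.399 were found in 11 members (28.9%), 8 toward BMSC-Adipo and 3 toward BMSC-Osteo, against 44.4% of all genes.

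**Figure D1:**
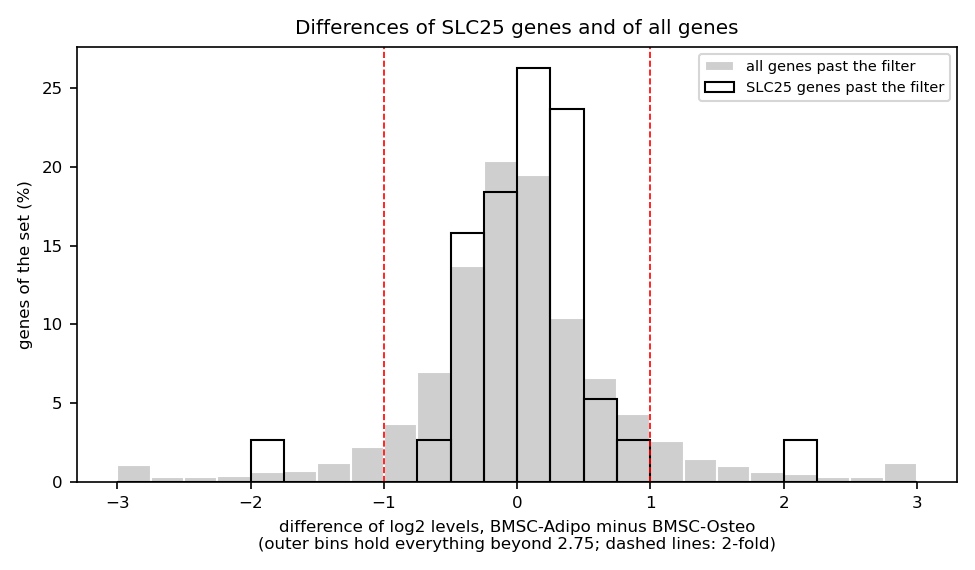
Distribution of log2 differences (BMSC-Adipo minus BMSC-Osteo, x axis) over the 38 SLC25 genes and all 14497 genes past the brightness limit, as percent of genes per bin (y axis). The outermost bins also hold the values beyond them. The members gather near 0, with 36 of 38 inside the 2-fold limits.

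Slc25a45, described as a carrier of methylated amino acids, had a level of 8.32 in BMSC-Adipo and 6.18 in BMSC-Osteo. The difference of 2.14 was 4.42-fold, and 291 of the 14497 genes, itself included, differed by as much or more in that direction. Its value rests on 1 probe set, so no second probe set bears on it. The median difference of its chromosome, 19, was 0.06.

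Slc25a33, a carrier that brings pyrimidine nucleotides into the matrix for mitochondrial DNA and RNA synthesis, had a level of 5.99 in BMSC-Adipo and 7.75 in BMSC-Osteo. The difference of -1.77 was 3.40-fold toward BMSC-Osteo, and 374 genes, itself included, were as low or lower. It too was read by 1 probe set. Genes of chromosome 4 had a median difference of -0.32, and with that median subtracted Slc25a33 stood at -1.45.

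Its relative Slc25a36, which also carries pyrimidine nucleotides, had a level of 9.89 in BMSC-Adipo and 9.40 in BMSC-Osteo. The difference of 0.48 was positive on all 3 of its probe sets, which spanned 0.25 to 0.68. The gap between the differences of both pyrimidine carriers, 2.25, was the widest among the 10 groups of related carriers with at least 2 members past the limit. The next was close at 2.12, between Slc25a45 and its relative Slc25a29. With chromosome medians subtracted this order was reversed. Slc25a36 then stood at 0.57 and Slc25a33 at -1.45, a narrower gap than that between Slc25a45 (2.09) and Slc25a29 (-0.31).

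**Figure D2:**
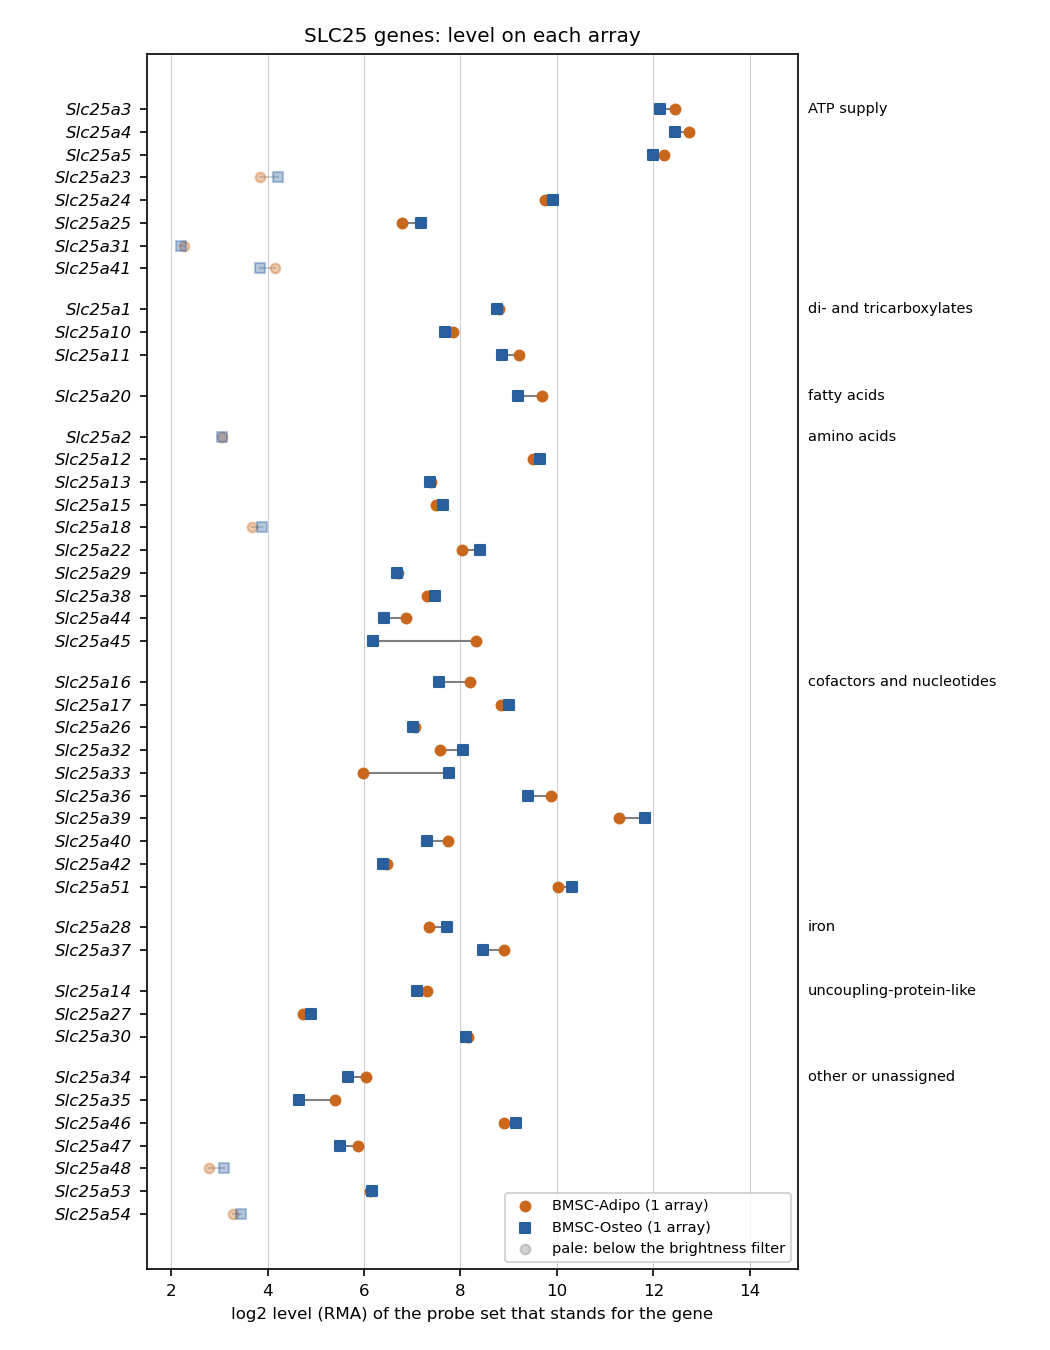
Log2 level of the SLC25 genes reported by name on the array of BMSC-Adipo and on that of BMSC-Osteo (1 array per line, no error bars), grouped by what the carrier transports, with the 7 genes below the brightness limit marked. Slc25a45 (8.32 and 6.18) and Slc25a33 (5.99 and 7.75) have the widest gaps between their points. Levels of different genes come from different probe sets and are not comparable with each other.

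The carriers that supply ATP synthesis and export its product had small positive differences, within the probe set SD of 0.399 on the probe sets that stand for them. Slc25a3, which imports the phosphate for ATP synthase, had levels of 12.5 and 12.1, a difference of 0.31. Slc25a4, the ADP/ATP carrier of heart and muscle (ANT1), had levels of 12.7 and 12.5, a difference of 0.28. Slc25a5, the ADP/ATP carrier of proliferating cells (ANT2), had levels of 12.2 and 12.0, a difference of 0.22. All 14 probe sets of these 3 genes had positive differences, from 0.17 to 0.46, and none reached 1.5-fold. The chromosomes of these genes also had positive medians, namely 0.24 on chromosome 10, which holds Slc25a3, 0.41 on chromosome 8, which holds Slc25a4, and 0.15 on the X chromosome, which holds Slc25a5. With those medians subtracted the differences were 0.07, -0.12 and 0.07, so that Slc25a4 changed sign. Of the 8 probe sets of Slc25a5, 6 carry the suffix with which the maker marks probes that may match other transcripts. Slc25a31, the testis form (ANT4), lay below the brightness limit with levels of 2.28 and 2.21.

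The ATP-Mg/phosphate carriers, which adjust the matrix pool of adenine nucleotides in response to calcium, went the other way. Slc25a24 had levels of 9.75 and 9.91, a difference of -0.16, and Slc25a25 had levels of 6.79 and 7.18, a difference of -0.39. Both lay within the probe set SD, and a probe set that Slc25a25 shares with Naif1 gave 0.19. Their relatives Slc25a23 (3.84 and 4.21) and Slc25a41 (4.15 and 3.84) had averages below the brightness limit.

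The 3 measured carriers of di- and tricarboxylates were all positive and small. Slc25a1, which exports citrate for fatty acid synthesis, had levels of 8.81 and 8.75, a difference of 0.06. Slc25a10, the dicarboxylate carrier, had levels of 7.84 and 7.67, a difference of 0.17. Slc25a11, the oxoglutarate/malate carrier of the malate-aspartate shuttle, had levels of 9.20 and 8.87, a difference of 0.33. Thus the citrate carrier itself was nearly level in lines that differed by over 4 on the log2 scale in Pparg.

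Slc25a20, the carnitine/acylcarnitine carrier that admits long-chain fatty acids for oxidation, was higher in BMSC-Adipo. Its levels were 9.69 and 9.19, a difference of 0.50, and its 2 probe sets gave 0.46 and 0.50. Together with Slc25a45, Slc25a29 and Slc25a47 it belongs to a branch of carnitine-like carriers in the sequence tree of the family. On the probe sets that stand for them all 4 were positive, with 0.02 for Slc25a29, a carrier of basic amino acids, and 0.39 for Slc25a47, a carrier best known from liver. Slc25a29 had levels of 6.71 and 6.68, and its 5 probe sets ran from -0.05 to 0.16. Slc25a47 was read by 1 probe set, whose suffix marks possible matches to other transcripts. Slc25a29 and Slc25a47 both lie on chromosome 12, and with its median of 0.33 subtracted they stood at -0.31 and 0.06, so that Slc25a29 changed sign. Slc25a48 of the same branch lay below the limit with levels of 2.79 and 3.10.

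Apart from Slc25a45, the only amino acid carrier beyond the probe set SD on the probe set that stands for it was Slc25a44 (0.46). Slc25a12 (aralar) and Slc25a13 (citrin), the calcium-stimulated aspartate/glutamate carriers of the malate-aspartate shuttle, differed by -0.14 and 0.01. Slc25a12 depended on the probe set. The brightest, with levels of 9.50 and 9.65, gave -0.14, and the other 2 gave 0.20 and 0.96, so that the mean over its probe sets was 0.34. Slc25a22, which carries glutamate, had levels of 8.03 and 8.40, a difference of -0.37. Its relative Slc25a18 lay below the limit in both lines.

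Slc25a15, the ornithine carrier of the urea cycle, had levels of 7.49 and 7.64, a difference of -0.15, and its relative Slc25a2 lay below the limit at 3.06 on both arrays. Slc25a15 lies on chromosome 8, and with that chromosome's median of 0.41 subtracted it stood at -0.56. Slc25a38, which supplies glycine for heme synthesis, differed by -0.17. Slc25a44, the carrier of branched-chain amino acids known from brown fat, had levels of 6.88 and 6.42, a difference of 0.46. A second probe set of Slc25a44 gave 0.43 and the dimmest gave -0.06.

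The 11 carriers of cofactors and nucleotides past the limit ran from -1.77 for Slc25a33 to 0.64 for Slc25a16. Slc25a16, linked to coenzyme A import, had levels of 8.19 and 7.55, which made it 1 of the 3 members at 1.5-fold toward BMSC-Adipo. It fell short of that size with the median of chromosome 10 subtracted (0.40) and when 32 was added to the linear levels (0.57). Slc25a42, the coenzyme A carrier, had levels of 6.47 and 6.38, a difference of 0.09, or -0.32 with the median of chromosome 8 subtracted. Its other probe set gave -0.09, so that its direction is uncertain.

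The glutathione carriers differed in opposite directions. Slc25a39, which imports glutathione into the matrix, had levels of 11.3 in BMSC-Adipo and 11.8 in BMSC-Osteo. The difference was -0.55, and all 5 of its probe sets were negative, from -0.74 to -0.18. Slc25a40, its close relative, had levels of 7.73 and 7.31, a difference of 0.42, which left a gap of 0.97 between them. Both values were beyond the probe set SD. Slc25a40 was read by 1 probe set, and it fell within that SD with a loess curve subtracted (0.396) or 32 added to the linear levels (0.356). The brightest probe set of Slc25a39 carries a suffix that marks possible matches to other transcripts. Without such probe sets Slc25a39 stood at -0.74.

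Slc25a32, the carrier of folate and FAD, was lower in BMSC-Adipo. Its levels were 7.57 and 8.05, a difference of -0.49, and its 3 probe sets ran from -0.57 to -0.15. Slc25a51, the NAD carrier, had levels of 10.0 and 10.3, a difference of -0.29, but its 3 probe sets spanned -0.79 to 0.03 and it stood at 0.03 with the median of chromosome 4 subtracted. Slc25a17, the peroxisomal carrier of cofactors, differed by -0.16. Slc25a26, which imports S-adenosylmethionine, differed by 0.04 on a probe set whose suffix marks possible matches to other transcripts and by -0.22 on its other single-gene probe set, so that its direction is uncertain.

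**Figure D3:**
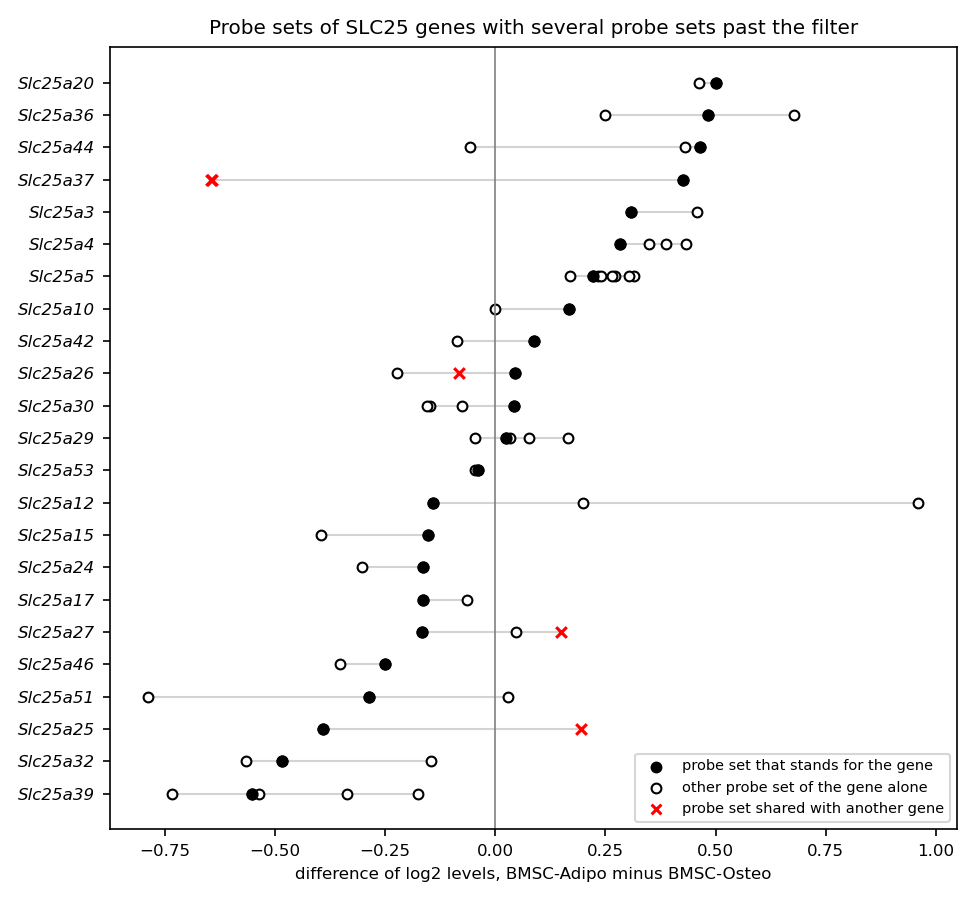
Log2 difference (BMSC-Adipo minus BMSC-Osteo, x axis) of every probe set past the brightness limit for members reported by name and read by several, 1 gene per line, with filled points for the probe set that stands for the gene, open points for its others and crosses for those shared with another gene. The single-gene probe sets of Slc25a3, Slc25a4 and Slc25a5 all lie right of 0 and those of Slc25a39 and Slc25a32 all left of it, while those of Slc25a12 and Slc25a51 lie on both sides.

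The mitoferrins, which bring iron into the matrix for heme and iron-sulfur clusters, were also opposite in sign. Slc25a28 (mitoferrin 2) had levels of 7.35 and 7.71, a difference of -0.36. Slc25a37 (mitoferrin 1) had levels of 8.89 and 8.47, a difference of 0.43 on its own probe set. Its shared probe sets went the other way: those that also name Entpd4 and Gm21685 gave -0.65 and -0.64, and 1 that also names Gm16867, below the brightness limit, gave -0.97. The direction of Slc25a37 is therefore uncertain.

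Among the carriers related to uncoupling proteins, Slc25a14 (UCP5) differed by 0.21, Slc25a30 by 0.04 and Slc25a27 (UCP4) by -0.17. The sign of Slc25a30 rests on its brightest probe set, since the other 3 past the limit were negative (-0.16 to -0.08) and the mean over its probe sets was -0.10. With the median of chromosome 14 subtracted it stood at -0.12. Slc25a27 was dim, with levels of 4.74 and 4.91, and it stood at 0.15 when probe sets shared with other genes were admitted. None of the 3 was beyond the probe set SD.

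Members with no transport role stated here included the last of the genes at 1.5-fold. Slc25a35 had levels of 5.41 and 4.65, a difference of 0.76. The difference of this dim gene was 0.38, below 1.5-fold, when 32 was added to the linear levels. Its relative Slc25a34 had levels of 6.03 and 5.66, a difference of 0.37. Slc25a46, which lies in the outer membrane and acts in mitochondrial dynamics, had levels of 8.89 and 9.15, a difference of -0.25, or 0.10 with the median of chromosome 18 subtracted. Slc25a53 differed by -0.04, and Slc25a54 lay below the limit with levels of 3.29 and 3.45.

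How well probe sets of 1 gene shared a direction was read in the 22 members with at least 2 probe sets past the brightness limit. All probe sets had the same sign in 12 of them (54.5%), against 70.4% of 6412 genes. With at least 3 probe sets the count was 5 of 10, against 62.5% of 2774 genes. Over the 81 single-gene probe sets of members past the limit, 45 differences were positive, 35 negative and 1 was 0. Again 1 was at least 2-fold higher in each line.

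Genes that work with the carriers were counted in the same way. Of 12 genes of the import route that inserts carriers into the inner membrane, 3 were at least 2-fold higher in BMSC-Osteo (6.68% of all genes) and none in BMSC-Adipo (7.88% of all genes), with a median difference of -0.39. These were chaperones of the intermembrane space: Timm8a1 with levels of 8.44 and 10.1 (-1.70), Timm10b with 9.45 and 10.5 (-1.09) and Timm10 with 8.41 and 9.43 (-1.01). Timm10 was read by 1 probe set past the limit and lies on chromosome 2, whose median difference was -0.24. The probe sets of Timm10b ran from -1.09 to -0.97, so that its place among the 3 depends on the probe set. Tomm70a, the receptor that carriers use at the outer membrane, differed by -0.91. Over the whole route 8 genes were negative and 4 positive. The positive genes were Timm22 (0.23), Timm29 (0.23), Tomm20 (0.14) and Timm13 (0.08). Other probe sets of Tomm20 reached 1.10, and another of Timm22 gave -0.03. The median was 0.05 over the 38 carriers, of which 23 were positive and 15 negative, and -0.39 over the route that inserts them. The difference between these medians was not tested.

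Slc25a20 and Slc25a32 were each set beside the enzymes of their pathway. All 5 measured genes of the carnitine shuttle were positive like Slc25a20, with a median of 0.56, and Slc22a5, the plasma membrane carnitine transporter, was 2-fold or more higher in BMSC-Adipo, as were 7.88% of all genes, with levels of 9.06 and 7.22 (1.85). Of the 5, Cpt2 (0.09) and Crat (0.13) lay within the probe set SD of 0.399, and a dimmer probe set of Crat gave -0.13. All 5 mitochondrial folate enzymes were negative like Slc25a32, with a median of -1.16, and 3 were 2-fold or more higher in BMSC-Osteo, as were 6.68% of all genes: Aldh1l2 (-3.15), Mthfd2 (-2.00) and Shmt2 (-1.16). Aldh1l2 was read by 1 probe set past the limit. The 4 probe sets of Shmt2 ran from -1.20 to -0.40, so that its 2-fold size depends on the probe set. Mthfd2l was negative on its brightest probe set (-0.21), while its probe sets reached 0.71.

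Around Slc25a1, the 6 genes of citrate export and use had a median of 0.36, and around Slc25a11, Slc25a12 and Slc25a13 the 4 enzymes of the malate-aspartate shuttle had a median of 0.11. None of these 10 genes reached 2-fold on the probe set that stands for it. Me1 came nearest at -0.99, and its other probe set gave -1.29, while the other 5 genes of the citrate list were positive. In the shuttle list 2 enzymes were positive and 2 negative, with Got1 at -0.88. Around the mitoferrins and Slc25a38, 8 genes of mitochondrial heme and iron handling had a median of 0.35, with Ppox (1.13) and Cpox (-1.11) past 2-fold in opposite directions. The 3 enzymes of the glycerol phosphate shuttle, with a median of 0.50, and the 12 other gates for metabolites and ions, with a median of 0.26, held no gene past 2-fold. Of 5 members of the same protein family named otherwise, 4 were past the brightness limit and none reached 2-fold. Ucp2 differed by -0.12, with 0.14 on its other probe set, and Mtch2 by -0.64, while Ucp1 lay below the limit.

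**Figure D4:**
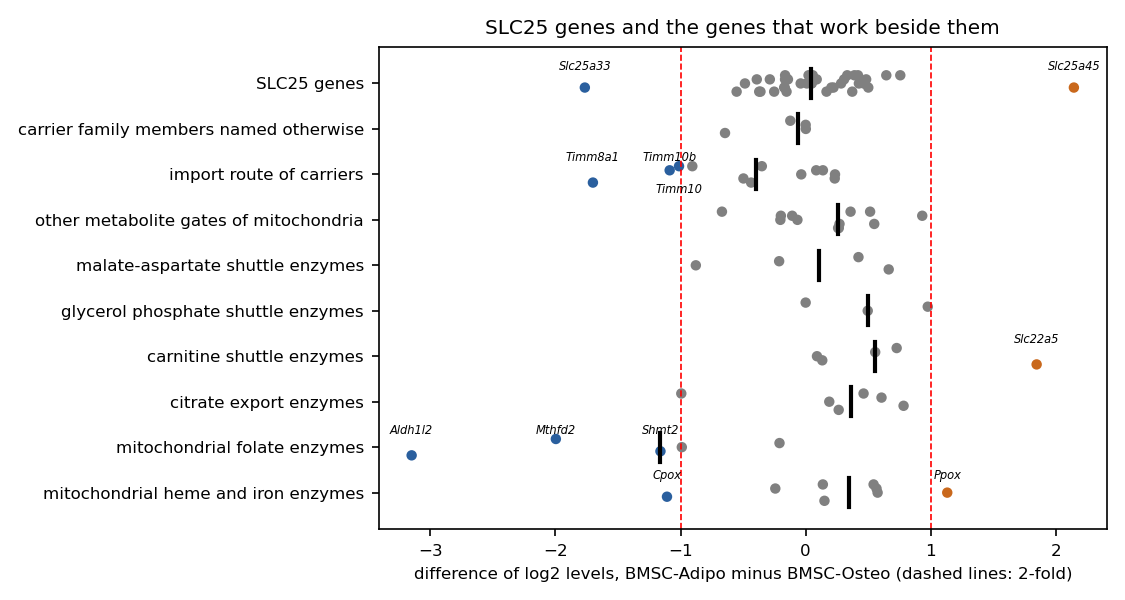
Log2 difference (BMSC-Adipo minus BMSC-Osteo, x axis) of each gene past the brightness limit in the SLC25 family and in the 9 lists of genes that work with it, 1 list per line, with the list's median marked and genes past 2-fold named. The medians of the import route (-0.39) and the folate enzymes (-1.16) lie to the left, toward BMSC-Osteo, and that of the carnitine shuttle (0.56) to the right.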

How the data were processed

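Total RNA of both lines was hybridised to Affymetrix arrays, 1 per line, and groups were taken from the sample labels. The authors' deposited values are log2 levels made by RMA in the R package oligo. The oligo version was not given in the sources used here. A log2 fold change column in the deposited table was not used. The series matrix held the same levels, with a largest gap of 0. Control probe sets (64), probe sets with no gene (5368) and those naming several genes (1479) were left out, which left 38190. All 45 members matched RefSeq (GRCm38.p6) by gene ID, which gave chromosomes and promoters. The files name no genome build.

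There were no replicates and hence no p-values, and precision is limited by the number of arrays. Genes were counted by size, 2-fold or 1.5-fold. Members were named. Levels were given for those at 1.5-fold or among the 6 highest differences in a direction. They were also given for most related carriers and most of those whose probe sets differ in sign. Of the other lists, genes at 2-fold are named. Further values given there were chosen after they were seen (Tomm70a, Tomm20, Timm22, Timm29, Timm13, Cpt2, Crat, Mthfd2l, Me1, Got1, Ucp1, Ucp2, Mtch2). A single member is not reported here by name and remains in the counts and medians. Members and lists were chosen with earlier results of these data known. The calculation was tested on simulated data. Python 3.11.15, numpy 2.4.6, pandas 2.3.3, statsmodels 0.14.6 and matplotlib 3.10.9 were used.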

Additional observations from a re-analysis of the deposited data

How the results depend on the processing

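The counts of 1 member at 2-fold in each line were the same under the 10 alternatives for the values or the genes kept (mean of a gene's probe sets, shared probe sets admitted, no brightness filter, a brightness limit at the 50th percentile, removal of the overall median, of a loess curve with span 0.3 or of each chromosome's median, an offset of 32 on the linear scale, the series matrix, whose values are identical, and no probe sets with an x or s suffix), and when probe sets were counted. A 1.5-fold rule gave 3 members higher in BMSC-Adipo, and a 4-fold rule gave 0 in BMSC-Osteo. Of those 3, Slc25a16 and Slc25a35 fell below 1.5-fold with the offset, and Slc25a16 also with chromosome medians subtracted. The members' median ran from 0.03 to 0.07. Slc25a45 ran from 1.75 to 2.17 and Slc25a33 from -1.78 to -1.38. Each was read by 1 unshared probe set without an x or s suffix. Averaging, shared probe sets, other brightness limits, the series matrix and the suffix rule therefore could not alter their values. Differences of single members moved by over 0.399 in 4 cases, Slc25a4 (-0.12), Slc25a15 (-0.56) and Slc25a42 (-0.32) with chromosome medians subtracted and Slc25a12 (0.34) with probe sets averaged. The sign changed in 15 cases, of which 8 came with chromosome medians subtracted. That alternative and the one on suffixes were chosen after seeing the data. No paired analysis was possible because each line had 1 array, and for the same reason no array could be left out.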

Other observations

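Outside the 64 control probe sets, the difference was exactly 0 in 2096 probe sets (4.65%). Among members this was so for Slc25a2, at a level of 3.06 on both arrays, which lay below the brightness limit, and for 1 probe set of Slc25a10.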
